A study of Mus musculus with 16 samples.

Results

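The 7 genes described here, Anxa9, Mturn, Pcmtd2, Add3, Zfp704, Ctdsp2 and Fam234a, were picked because their RNA level was lower in mouse mammary organoids carrying mutations in both HER2 and PIK3CA than in organoids carrying the PIK3CA mutation alone. They are 7 of the 55487 gene identifiers in the deposited count table, each was found under exactly 1 identifier, and all 7 passed the filter on low counts in every fit used below. The study profiled bulk RNA from 16 cultures of organoid cells, which are epithelial cells grown as small 3-dimensional structures. The cultures fall into 3 WT samples from normal breast, 4 samples labelled PIK3CA Mutation, 4 labelled HER2 Mutation and 5 labelled HER2 and PIK3CA Mutation, the last 3 groups from tumor breast. The series title names the alleles HER2V777L and PIK3CAH1047R. All cultures are listed with 1 medium, containing B27, N-acetyl-cysteine, murine EGF at 50 ng/ml and 10% medium conditioned with Rspo1 and Noggin. Mutant genotype and tumor origin therefore cannot be told apart in any comparison with WT. How the mutations were introduced, in which cells they were switched on, the ages of the mice and whether the HER2 allele is a mouse or a human sequence are not given in the sources used here. The samples of a genotype are called replicates, but nothing in the sources used here says that each came from a different mouse, so the p-values measure the spread between these samples.

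As background, HER2 (gene Erbb2) is a receptor tyrosine kinase of the EGF receptor family with no known ligand of its own. It acts in pairs with other family members, above all ERBB3, whose phosphorylated tail recruits PI3K. PIK3CA encodes a catalytic subunit of PI3K, which makes the membrane lipid that activates AKT, and AKT keeps FOXO transcription factors out of the nucleus. In the mammary gland this pathway governs growth and survival of the epithelium, and both genes are recurrently mutated in breast cancer. None of the 7 genes is a core component of the pathway. They belong to different families: Ctdsp2 is a phosphatase that acts on the tail of RNA polymerase II and other nuclear substrates. Zfp704 is a zinc finger transcription factor. Add3 is gamma-adducin, which ties spectrin to actin filaments under the plasma membrane. Anxa9 is an unusual member of the annexins, a family of membrane-binding proteins. Fam234a is a little-studied membrane protein. Mturn (maturin) is known from the differentiation of neural progenitors, and Pcmtd2 resembles the methyltransferase that repairs damaged aspartyl residues, though it is not itself established as a repair enzyme.

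The genes lie on different chromosomes except for Anxa9 and Zfp704, which share chromosome 3 at distant positions. In GRCm38 (GENCODE M21), Ctdsp2 (ENSMUSG00000078429) is at chr10:126978717-126999975 on the plus strand and Zfp704 (ENSMUSG00000040209) at chr3:9427020-9610085 on the minus strand. Add3 (ENSMUSG00000025026) is at chr19:53140443-53247399, plus strand, Anxa9 (ENSMUSG00000015702) at chr3:95296096-95307176, minus strand, and Fam234a (ENSMUSG00000024187) at chr17:26211822-26244242, minus strand. Mturn (ENSMUSG00000038065) is at chr6:54681624-54703851 and Pcmtd2 (ENSMUSG00000027589) at chr2:181837854-181857461, both on the plus strand. All 7 are protein-coding.

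To set the 7 genes' sequences beside their levels, the stretches before their transcription starts were read from the RefSeq promoter table (GRCm38.p6). It held 10 windows for 5 of the 7 genes: Anxa9, Mturn, Add3, Ctdsp2 and Fam234a. Shown here are the 250 bases before 1 start of each of 4 genes, on the gene's own strand and 5′ to 3′. They are the 3 genes with a motif match and Ctdsp2, whose window at the annotated gene start had none. Capitals mark every match, on either strand, to any of 6 motifs. The motif that FOXO factors bind was searched as GTAAACA. The E-box, bound by MYC and related factors, was searched as CACGTG. The ETS motif was searched as GGAAGT. The AP-1 motif was searched as TGANTCA. The cyclic AMP response element, CRE, was searched as TGACGTCA. The TATA box was searched as TATAAA. No match overlapped another.
Mturn, chr6:54681374-54681623 (plus strand): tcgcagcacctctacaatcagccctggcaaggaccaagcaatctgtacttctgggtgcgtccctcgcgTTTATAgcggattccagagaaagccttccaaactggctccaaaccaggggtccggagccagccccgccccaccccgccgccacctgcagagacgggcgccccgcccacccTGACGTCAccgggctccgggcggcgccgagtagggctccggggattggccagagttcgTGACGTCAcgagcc
Add3, chr19:53140193-53140442 (plus strand): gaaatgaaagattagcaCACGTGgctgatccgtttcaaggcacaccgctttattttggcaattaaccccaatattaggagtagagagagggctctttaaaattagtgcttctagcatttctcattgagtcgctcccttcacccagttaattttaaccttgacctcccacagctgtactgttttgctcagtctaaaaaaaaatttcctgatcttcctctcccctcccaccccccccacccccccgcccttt
Fam234a, chr17:26244243-26244492 (minus strand): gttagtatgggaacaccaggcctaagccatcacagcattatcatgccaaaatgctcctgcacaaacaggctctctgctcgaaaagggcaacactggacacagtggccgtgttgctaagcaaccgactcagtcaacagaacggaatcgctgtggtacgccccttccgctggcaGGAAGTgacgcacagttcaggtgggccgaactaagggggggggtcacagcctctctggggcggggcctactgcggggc
Ctdsp2, chr10:126978467-126978716 (plus strand): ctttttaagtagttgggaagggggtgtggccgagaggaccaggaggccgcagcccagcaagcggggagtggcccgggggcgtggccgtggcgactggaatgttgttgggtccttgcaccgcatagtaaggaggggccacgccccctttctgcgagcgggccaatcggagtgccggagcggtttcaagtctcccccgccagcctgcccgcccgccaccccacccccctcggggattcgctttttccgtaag

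The windows shared no motif. Mturn had 2 CRE matches, the nearest 6 bases before the start, and 1 TATA match 176 bases before it. Add3 had an E-box 227 bases before its start, and Fam234a had an ETS match 72 bases before the start shown, which also falls in its other window. No window of the 5 genes held a FOXO or an AP-1 match. Over the 32851 windows of the table, 1.55% held CRE, 12.4% TATA, 6.02% the E-box, 19.7% ETS, 3.17% FOXO and 6.75% AP-1. Of the windows shown, those of Mturn and Ctdsp2 held 22 and 20 CG dinucleotides, that of Fam234a 11 and that of Add3 5, against a median of 6 over all windows. Windows of the same gene differed, with 3 and 30 for Anxa9 and 8 in the other window of Ctdsp2. A match is a description of the letters and not a measured binding site.

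The mutated genes were read first as a check of the labels. Erbb2 counted 153, 171 and 145 CPM (read counts scaled to the library's size, with TMM factors) in WT and 149, 165, 188 and 171 CPM in the PIK3CA mutants. It reached 3385, 2696, 4632 and 3686 CPM in the HER2 mutants and 1499, 2751, 2705, 1553 and 1649 CPM in the double mutants. The 9 samples labelled with a HER2 mutation were thus far above the other 7, and the mean was lower in the double mutants (2031 ± 639 CPM, SD, n = 5) than in the HER2 mutants (3600 ± 803 CPM, SD, n = 4). Against WT, the Erbb2 estimate in the HER2 mutants was 4.55 log2 units higher (SE 0.275, adjusted p = 0.00497, edgeR quasi-likelihood test, 4 against 3 samples). The count does not show which allele the reads came from. Pik3ca, whose point mutation need not change the amount of RNA, averaged 81.3 CPM in WT, 101 in the PIK3CA mutants, 67.0 in the HER2 mutants and 115 in the double mutants.

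Total counts ran from 45545182 to 64168308 per sample, and the 20 most abundant genes took 15.1% to 21.9% of them. Every sample had luminal keratins and other luminal epithelial markers, with a summed level of 1569 to 4877 CPM, so the mammary epithelial label held. Endothelial and adipocyte markers were near 0, at most 4.82 and 0.984 CPM in sum. Immune markers reached 495 to 3006 CPM in WT but 9.33 to 183 CPM in the 13 mutant samples, and fibroblast markers 326 to 1900 CPM in WT, 65.1 to 472 in PIK3CA, 34.0 to 624 in HER2 and 26.2 to 58.0 CPM in the double mutants. In bulk RNA, fewer cells of a type and less RNA per cell cannot be told apart.

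Across the 4 genotypes the genes fell into 3 patterns. Ctdsp2, Zfp704, Fam234a and Mturn stood lower with mutant HER2 whether or not PIK3CA was mutated. Add3 and Anxa9 were high in the PIK3CA mutants and not in the double mutants. Pcmtd2 had every double-mutant sample below all others, while WT overlapped both single mutants. For these 7 genes the difference between the double and PIK3CA mutants is what chose them, so their levels in those samples are a description without a test.

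**Figure D1:**
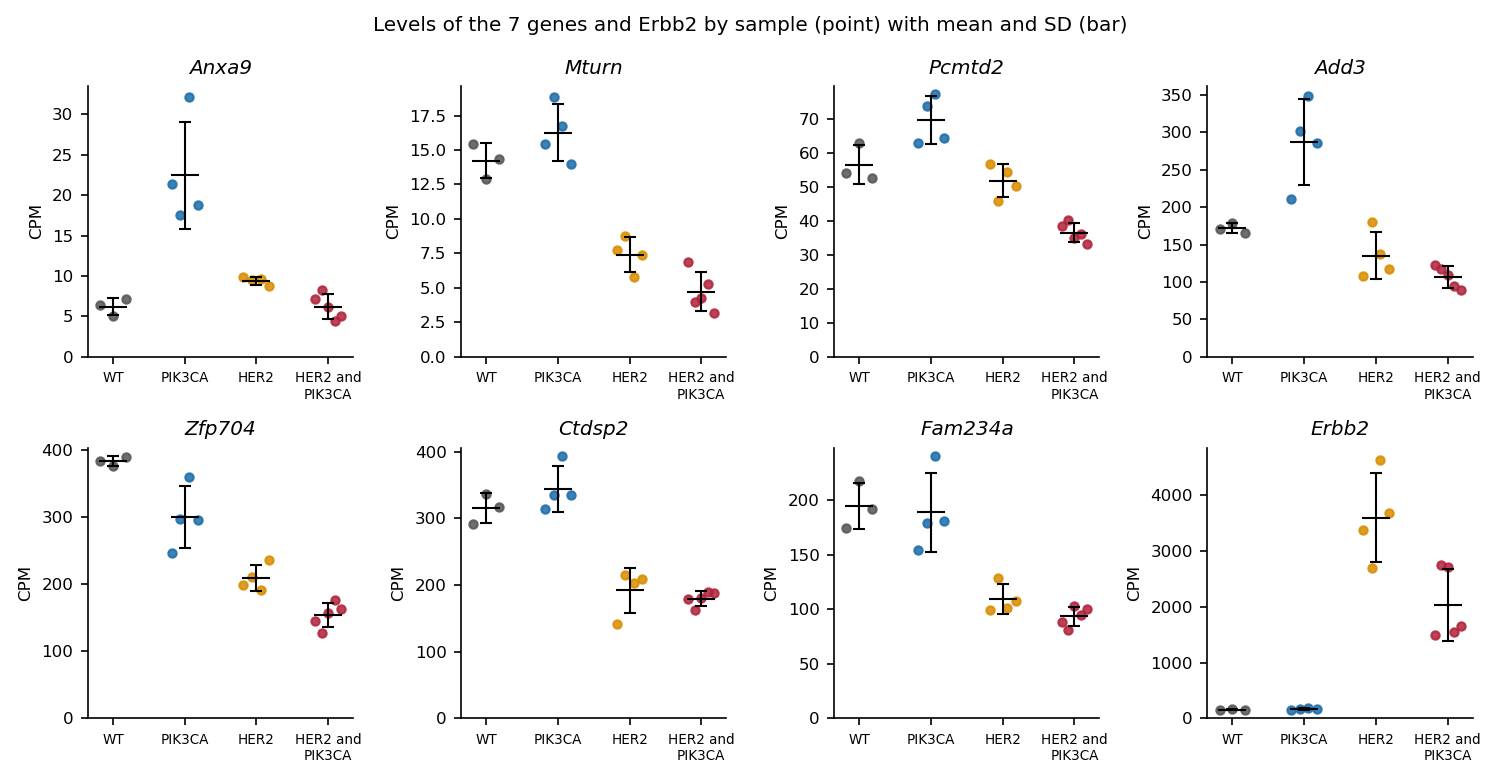
TMM-scaled CPM of each of the 7 genes in each of the 16 samples, by genotype; points are samples, bars the group mean and SD, and a last panel shows Erbb2. Every double-mutant point lies below every PIK3CA-mutant point for each gene, which is how the genes were picked, while the WT and HER2-mutant points differ in position from gene to gene.

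Among the nuclear regulators, Ctdsp2 had 292, 336 and 317 CPM in the WT samples, 314, 335, 394 and 334 CPM in the PIK3CA mutants, 142, 214, 203 and 208 CPM in the HER2 mutants, and 179, 162, 181, 189 and 188 CPM in the double mutants. The samples formed a high set, WT and PIK3CA mutants, and a low set, HER2 and double mutants, with overlap inside each set and none between them. Means were 315 ± 22.5 CPM (SD, n = 3), 344 ± 34.3 (n = 4), 192 ± 33.7 (n = 4) and 179.6 ± 10.6 (n = 5), in the same order. Replicate 1 of the HER2 mutants was far below its group and set most of that group's SD.

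Zfp704, the other nuclear protein, had 384, 376 and 390.4 CPM in WT, 247, 297, 359.8 and 296 CPM in the PIK3CA mutants, 199, 211, 192 and 235 CPM in the HER2 mutants, and 146, 128, 158, 176 and 164 CPM in the double mutants. Its groups were fully separated and descended from WT (384 ± 7.04 CPM, SD, n = 3) through PIK3CA (299.7 ± 46.3, n = 4) and HER2 (209 ± 19.3, n = 4) to the double mutants (154 ± 18.3, n = 5). Zfp704 is the only one of the 7 with every PIK3CA-mutant sample below every WT sample. The gap was narrow, 359.8 against 376 CPM, and the share of all genes with this separation was not counted.

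Fam234a had 175, 217 and 192 CPM in WT, 154, 179, 240.3 and 181 CPM in the PIK3CA mutants, 99.6, 129, 101 and 108 CPM in the HER2 mutants, and 88.5, 81.3, 103, 94.8 and 99.8 CPM in the double mutants. As for Ctdsp2, the WT and PIK3CA samples overlapped, the HER2 and double mutants overlapped, and no sample of the first pair was as low as any of the second. Its means were 195 ± 21.4, 189 ± 36.5, 109 ± 13.5 and 93.6 ± 8.86 CPM (SD, n = 3, 4, 4 and 5).

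Mturn was the least counted of the 7 in the double mutants, with 165 reads in its lowest sample. It had 15.4, 12.9 and 14.4 CPM in WT, 15.4, 18.9, 16.7 and 13.97 CPM in the PIK3CA mutants, 7.73, 8.79, 5.76 and 7.35 CPM in the HER2 mutants, and 6.84, 4.01, 4.24, 5.28 and 3.21 CPM in the double mutants. Again WT and PIK3CA samples overlapped and stood above all others. The double mutants averaged 4.72 ± 1.4 CPM (SD, n = 5) and the HER2 mutants 7.41 ± 1.25 (n = 4), and replicate 1 of the double mutants lay inside the HER2-mutant range.

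The membrane skeleton gene Add3 behaved differently. It had 170.5, 179 and 166 CPM in WT, 210.4, 302, 349 and 286 CPM in the PIK3CA mutants, 108, 179.6, 137 and 117 CPM in the HER2 mutants, and 123, 118, 109, 94.7 and 89.9 CPM in the double mutants. Every PIK3CA-mutant sample exceeded every WT sample. Replicate 2 of the HER2 mutants stood at the WT level and its other replicates below, and the double mutants overlapped the HER2 mutants. The mean of 287 ± 57.6 CPM in the PIK3CA mutants (SD, n = 4) compares with 172 ± 6.65 in WT (n = 3), 135 ± 31.9 in the HER2 mutants (n = 4) and 107 ± 14.3 in the double mutants (n = 5).

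Anxa9, the annexin, had 6.38, 5.06 and 7.14 CPM in WT, 21.4, 17.5, 32.1 and 18.7 CPM in the PIK3CA mutants, 9.90, 9.45, 9.57 and 8.72 CPM in the HER2 mutants, and 7.15, 8.22, 6.11, 4.49 and 5.06 CPM in the double mutants. The PIK3CA mutants, at 22.5 ± 6.66 CPM (SD, n = 4), were above all 12 other samples. The double mutants (6.20 ± 1.52, n = 5) overlapped WT (6.20 ± 1.05, n = 3), and all 4 HER2-mutant samples (9.41 ± 0.498) lay above both. It is the only one of the 7 whose lowest group mean is not that of the double mutants.

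Pcmtd2 had 53.9, 62.9 and 52.6 CPM in WT, 62.7, 73.6, 77.3 and 64.4 CPM in the PIK3CA mutants, 56.7, 45.7, 54.2 and 50.3 CPM in the HER2 mutants, and 38.4, 40.1, 34.9, 36.1 and 33.0 CPM in the double mutants. WT overlapped both single mutants, which did not overlap each other, and all 5 double-mutant samples were below the other 11. The means were 56.5 ± 5.63, 69.5 ± 7.08, 51.7 ± 4.79 and 36.5 ± 2.78 CPM (SD, n = 3, 4, 4 and 5).

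Per kilobase of exon, which allows levels of different genes to be compared, Ctdsp2 was highest of the 7 in every genotype (57.0 CPM per kb in WT and 32.5 in the double mutants). Fam234a followed in WT (48.5), and Mturn was lowest (2.50 in WT and 0.828 in the double mutants). The double mutants had the lowest mean for 6 of the 7 genes. The highest mean was in the PIK3CA mutants for 5 genes and in WT for Zfp704 and Fam234a.

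In the contrast used to pick the genes, the double mutants against the PIK3CA mutants, all 7 log2 estimates were negative and are given without p-values. Anxa9 was 3.62-fold lower (log2 difference -1.86, SE 0.21), Mturn 3.44-fold lower (-1.78, SE 0.203) and Add3 2.69-fold lower (-1.43, SE 0.165). The other 4 were about as large as each other: 2.02-fold lower for Fam234a (-1.01, SE 0.133), 1.95-fold for Zfp704 (-0.96, SE 0.123), 1.92-fold for Ctdsp2 (-0.94, SE 0.123) and 1.91-fold for Pcmtd2 (-0.93, SE 0.107). Over all 24252 genes in that fit, 0.672% passed the threshold (adjusted p under 0.05, edgeR quasi-likelihood test), 75 higher (0.309%) and 88 lower (0.363%). The 7 genes are all among the 88, at places 3, 4, 5, 6, 8, 9 and 10 by p-value. All 7 had every double-mutant sample below every PIK3CA-mutant sample, which held for 4.5% of all genes. Nothing is read from either count, since this contrast chose the genes. The count of 163 genes over both directions fell to between 17 and 69 when any sample of the 9 but double-mutant replicate 3 was left out (143 without that one). The summed level of the fibroblast markers was also lower in the double mutants, at most 58.0 CPM against at least 65.1 CPM in the PIK3CA mutants. That holds for the sum and was not looked at marker by marker. The median log2 difference over the list was -2.65, with 0 of its 7 markers past the threshold. The part of the fibroblast signal in the result was not tested.

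**Figure D2:**
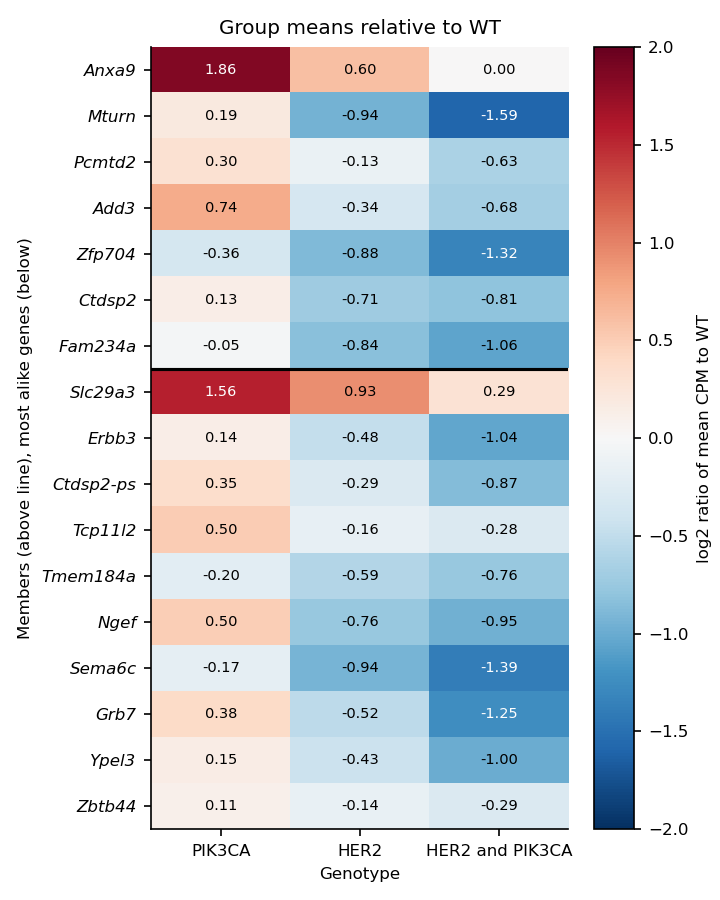
Log2 ratio of the mean CPM in each mutant genotype to the WT mean (colour and number), for the 7 genes above the line and the genes with the most similar levels below it. Of the 7 genes, Zfp704, Fam234a, Ctdsp2 and Mturn are furthest below 0 with mutant HER2 alone, with Add3 (-0.34) and Pcmtd2 (-0.13) less so. Anxa9 and Add3 are furthest above 0 with mutant PIK3CA alone, with Pcmtd2 (0.30), Mturn (0.19) and Ctdsp2 (0.13) less so. Anxa9 is at 0 in the double mutants.

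The HER2 mutants against WT shares no sample with the 2 genotypes compared to choose the genes, and was tested in a fit of these 7 samples alone. The picking may still bear on it. The 7 genes stand near the top by p-value in the fit of all 16 samples, whose spread comes partly from these 7 samples. Within the HER2 mutants their SD of log2 CPM was 0.077 to 0.32, against a median of 0.486 over all genes kept. A low spread makes passing easier, so the share of the 7 that passed may not be independent of the picking. Zfp704 and Fam234a fell in the HER2 mutants, and no gene of the 7 passed in the higher direction with edgeR. Zfp704 was 1.81-fold lower (log2 difference -0.85, 95% interval -1.15 to -0.55, SE 0.13, adjusted p = 0.0298, edgeR quasi-likelihood test) and Fam234a 1.76-fold lower (-0.81, interval -1.15 to -0.48, SE 0.145, adjusted p = 0.0399, the same edgeR test). Thus 2 of the 7 passed in the lower direction, where 1.41% of the 22823 genes tested did (0.96% in the higher and 2.37% in either direction). Each call was lost when any 1 WT sample or replicate 3 of the HER2 mutants was left out, and that of Fam234a also without replicate 4 of the HER2 mutants. Over all genes the count of 541 fell to 10, 62 and 5 without WT replicates 1, 2 and 3, and to 105 without HER2-mutant replicate 3.

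The remaining 5 genes did not pass with edgeR. Mturn had a log2 difference of -0.92 (interval -1.39 to -0.44, edgeR adjusted p = 0.0614) and Ctdsp2 of -0.69 (interval -1.08 to -0.31, edgeR adjusted p = 0.0726). For both genes all 4 HER2-mutant samples were below every WT sample. Anxa9 had an estimate of 0.63 (interval 0.16 to 1.10, edgeR adjusted p = 0.131), in the other direction. The estimates for Add3 (-0.32, interval -0.75 to 0.11, edgeR adjusted p = 0.35) and Pcmtd2 (-0.10, interval -0.43 to 0.23, edgeR adjusted p = 0.716) had intervals that included 0. When the 9 other samples were added to estimate the spread, Mturn (edgeR adjusted p = 0.0171) and Ctdsp2 (edgeR adjusted p = 0.00564) also passed, making 4 of 7, all lower, where 5.63% of all genes passed lower, 4.75% higher and 10.4% in either direction. That fit takes part of its spread from the samples used to pick the genes. DESeq2, run on the 7 samples, called Mturn (DESeq2 adjusted p = 0.000689), Ctdsp2 (0.00972) and, in the higher direction, Anxa9 (log2 difference 0.62, DESeq2 adjusted p = 0.0216). With limma on log2(value + 1) Mturn passed (limma adjusted p = 0.048), but on log2(value + 0.1) it did not (limma adjusted p = 0.0539).

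**Figure D3:**
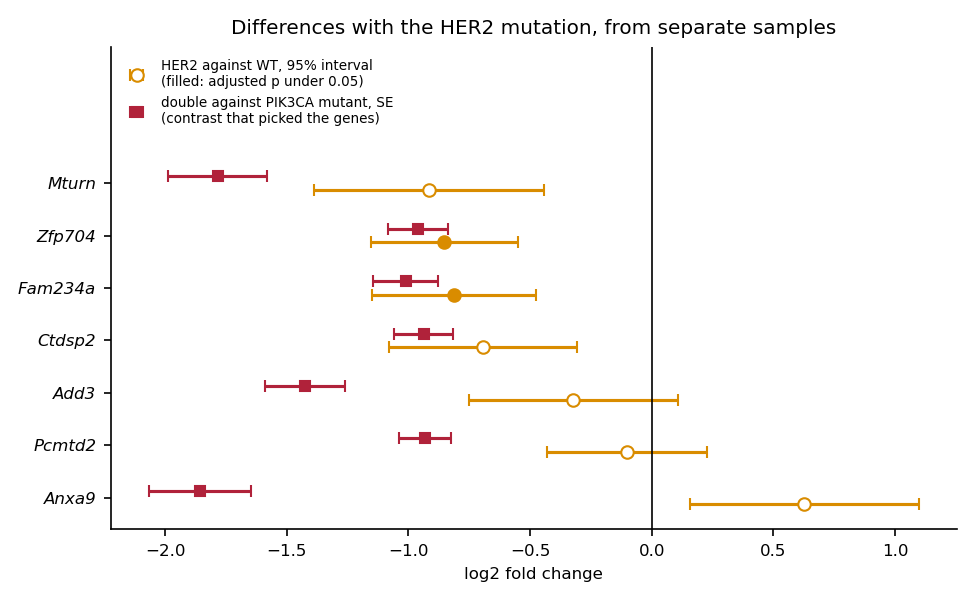
Log2 difference of each gene between the HER2 mutants and WT, from the tested fit of 7 samples, and between the double mutants and the PIK3CA mutants, shown as a description; bars are 95% intervals for the former (filled points passed the threshold) and SEs for the latter. Zfp704, Fam234a and Ctdsp2 have similar values on both sides, while Anxa9, Add3, Mturn and Pcmtd2 lie lower in the contrast that chose them.

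Complete separation of the groups followed the same lines, and a low spread within groups favours it too. For 4 of the 7 genes (Ctdsp2, Zfp704, Fam234a and Mturn), every HER2-mutant sample was below every WT sample, against 12.4% of all genes in the 16-sample fit. Anxa9 had every HER2-mutant sample above every WT sample, which held for 9.81% of all genes. Immune and fibroblast markers were lower in the HER2 mutants as well (median log2 differences -3.31 over the immune list and -2.22 over the fibroblast list), with 0 immune markers past the threshold and 1 of 7 fibroblast markers, Dpt (-5.98, edgeR adjusted p = 0.0406). In the basal list, 3 of 8 markers fell: Krt5, Myh11 and Mylk. When each of the 7 samples was left out in turn, the call held in 1 of 7 fits for Dpt, 2 of 7 for Krt5 and Mylk and 5 of 7 for Myh11; without WT replicate 1 or 3 none of the 4 passed. The part of these cell types in the members' differences was not tested.

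The other comparisons contain samples used to pick the genes and are descriptions. Against WT, the PIK3CA mutants had log2 differences of 1.86 for Anxa9 (SE 0.251) and 0.74 for Add3 (SE 0.191), the 2 of 7 genes with every PIK3CA sample above every WT sample (13.8% of all genes). Pcmtd2 followed at 0.30 (SE 0.123), and the values for Mturn (0.19), Ctdsp2 (0.13) and Fam234a (-0.05) were each smaller than their SEs. Zfp704 was at -0.36 (SE 0.139). Against WT, the double mutants ranged from 0.00 for Anxa9 (SE 0.228) to -1.59 for Mturn (SE 0.215), with Zfp704 at -1.32, Fam234a at -1.06, Ctdsp2 at -0.81, Add3 at -0.68 and Pcmtd2 at -0.63. For 6 of the 7 genes, all but Anxa9, every double-mutant sample lay below every WT sample (13.4% of all genes). These comparisons share samples with each other and with the one used for picking.

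The difference between the 2 HER2 contrasts, double against PIK3CA mutants minus HER2 mutants against WT, also rests on the picked samples. Tumor origin differs only in the contrast with WT, so its part cannot be told apart from that of mutant PIK3CA. It was -2.46 log2 units for Anxa9 (SE 0.323), -1.08 for Add3 (SE 0.251), -0.84 for Mturn (SE 0.306) and -0.80 for Pcmtd2 (SE 0.163). For Zfp704 (-0.08, SE 0.186), Fam234a (-0.18) and Ctdsp2 (-0.22) it was about the size of its SE. For the first 4 genes the contrast of double against PIK3CA mutants was thus more negative than that of HER2 mutants against WT, a direction that the picking favours.

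Set against the Erbb2 level of the same sample, the members differed from each other. In the WT and PIK3CA samples Erbb2 stayed between 145 and 188 CPM. There Anxa9 varied most, from 5.06 to 32.1 CPM, while Mturn ran from 12.9 to 18.9 CPM and Ctdsp2 from 292 to 394 CPM. Ctdsp2, Zfp704, Fam234a and Mturn were higher in all of these samples than in any sample with high Erbb2, and Anxa9, Add3 and Pcmtd2 were not. The share of all genes with this separation was not counted. The picking favours it too, so no relation to Erbb2 is read from it. In the 9 samples with high Erbb2, the HER2 mutants had more Erbb2 than the double mutants on average, and all 7 genes had a higher mean in the HER2 mutants. Picking genes for a lower level in the double than in the PIK3CA mutants favours this order and the separations that follow, so nothing is read from these counts. Every HER2-mutant sample was below every PIK3CA-mutant sample for 7 of 7 genes (6.87% of all genes), and every double-mutant sample was below every HER2-mutant sample for 3, Anxa9, Pcmtd2 and Zfp704 (2.38% of all genes). The log2 differences between double and HER2 mutants were -0.65 for Mturn, -0.60 for Anxa9, -0.50 for Pcmtd2, -0.44 for Zfp704, -0.34 for Add3, -0.22 for Fam234a and -0.10 for Ctdsp2.

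**Figure D4:**
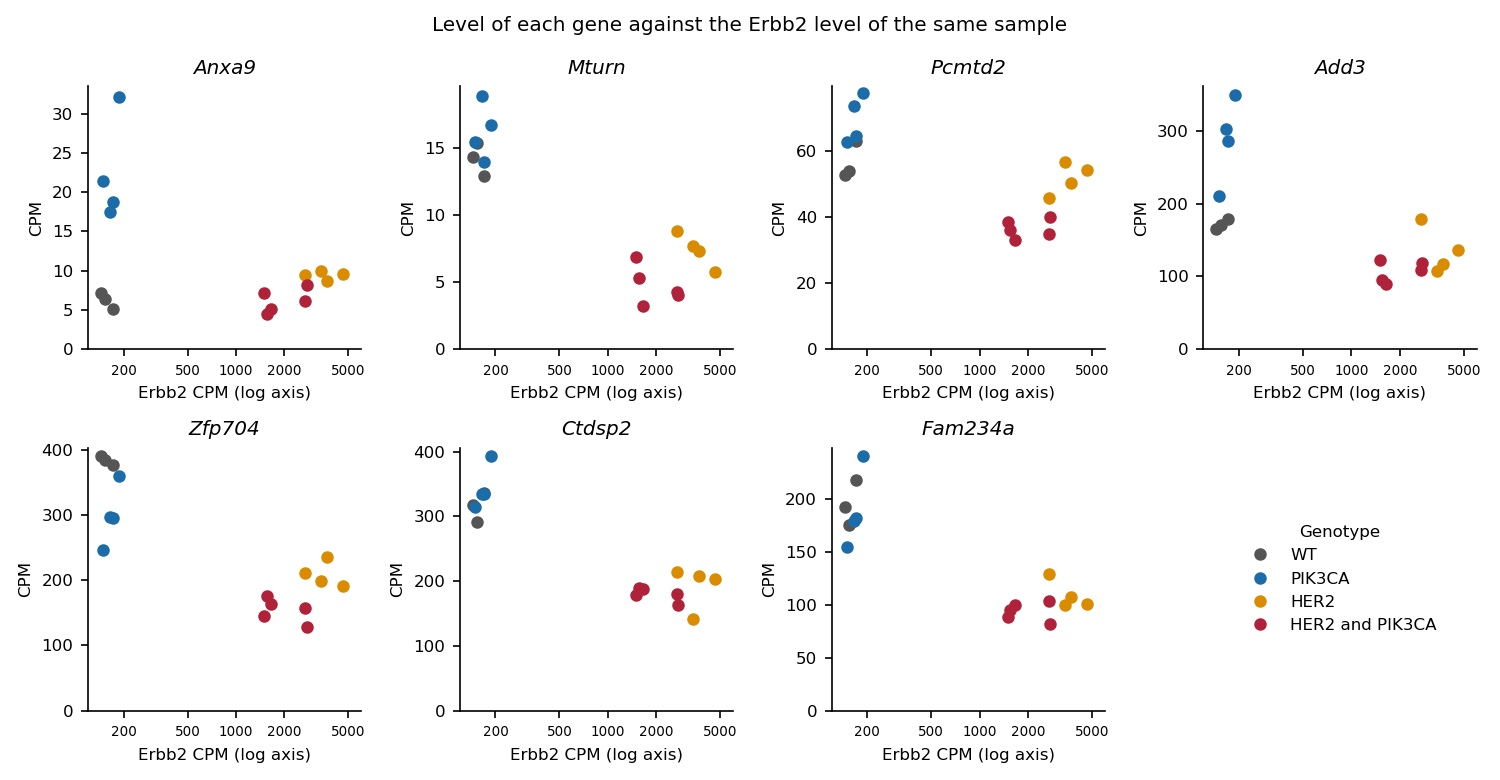
CPM of each gene (linear axis from 0) against the Erbb2 CPM of the same sample (log axis), coloured by genotype. The 7 samples without a HER2 mutation sit at 145 to 188 CPM of Erbb2 and the other 9 at 1499 to 4632 CPM; within those 9, the HER2 mutants overlap the double mutants in Erbb2 and have the higher mean for each gene.

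Within the 9 HER2-mutant and double-mutant samples, the change of each gene per doubling of Erbb2 was fitted with genotype as a covariate. Mturn had the most negative estimate, -0.55 log2 units per log2 unit of Erbb2 (95% interval -1.31 to 0.20, edgeR adjusted p = 0.475). Those of Zfp704 (-0.19), Fam234a (-0.16), Ctdsp2 (-0.11) and Add3 (-0.06) were also below 0, and those of Pcmtd2 (0.13) and Anxa9 (0.29) above it. The edgeR adjusted p was 0.663 for Zfp704, 0.713 for Fam234a, 0.833 for Ctdsp2, 0.925 for Add3, 0.77 for Pcmtd2 and 0.675 for Anxa9. None of the 7 passed, and every interval included 0. The widest was that of Mturn, and the narrowest ran from -0.57 to 0.26 for Fam234a, so slopes inside these ranges were not resolved. Over all 21965 genes 0% passed with edgeR, whereas 2959 had an unadjusted p under 0.05 and DESeq2 called 488. Without replicate 2 of the HER2 mutants, which had the least Erbb2 of its group, edgeR called 1476 genes, none of them among the 7. The sign of the Add3 slope turned without that sample (0.21).

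A pair of double-mutant samples had nearly the same Erbb2 level as a HER2-mutant one: replicates 2 and 3 of the double mutants, at 2751 and 2705 CPM, and replicate 2 of the HER2 mutants, at 2696 CPM. These 3 samples were chosen after their values were seen. All 7 genes were lower in both double-mutant samples than in that HER2-mutant sample. The share of all genes with this order was not counted, so nothing is read from the count. For Mturn the values were 4.01 and 4.24 against 8.79 CPM, for Add3 118 and 109 against 179.6 CPM, and for Zfp704 128 and 158 against 211 CPM. With 1 sample on one side this is a set of values without a test, and picking for low levels in the double mutants favours this order.

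The order of samples within a genotype was also looked at. In the PIK3CA mutants, replicate 3 was the highest sample for 6 of the 7 genes, all but Mturn, and replicate 1 was the lowest for 5. In the double mutants, replicate 5 was the lowest for 3. How often such an order holds over all genes was not counted, so no joint movement of the 7 is read from it. The mean z-score of the 7 genes over all samples, which puts each gene on the same scale, was 0.51 to 0.65 in WT, 0.78 to 1.61 in the PIK3CA mutants, -0.49 to -0.10 in the HER2 mutants and -1.17 to -0.83 in the double mutants. Over the 16 samples the Pearson r between pairs of the genes ran from 0.332 for Anxa9 and Zfp704 to 0.953 for Ctdsp2 and Fam234a. These correlations contain the group differences used to pick the genes and carry no test.

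The genes with the most similar levels over the 16 samples were then listed, out of 11733 candidates with a mean log2 CPM of at least 1. For the mean z-score the closest was Grb7 (r = 0.950), an adaptor protein that binds activated HER2, followed by Erbb3 (0.948), the receptor partner of HER2, Ypel3 (0.947), a small protein linked to growth arrest, Zbtb44 (0.915) and Ngef (0.904). Grb7 averaged 76.7 CPM in WT, 100.1 in the PIK3CA mutants, 53.6 in the HER2 mutants and 32.3 CPM in the double mutants. Erbb3 averaged 288 CPM in WT, 317 in the PIK3CA mutants, 207 in the HER2 mutants and 140.1 CPM in the double mutants. Ypel3 averaged 105, 117, 77.8 and 52.7 CPM in the same order. Being chosen for likeness to genes picked on these samples, these are given as levels without a test.

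For single genes, the closest were Erbb3 to Mturn (r = 0.947), Ngef to Ctdsp2 (0.945), Tmem184a to Zfp704 (0.944), Sema6c to Fam234a (0.936), Tcp11l2 to Add3 (0.926), Ctdsp2-ps to Pcmtd2 (0.916) and Slc29a3 to Anxa9 (0.896). Slc29a3, a nucleoside transporter of lysosomes, had the Anxa9 pattern at a higher level, with means of 96.2 CPM in WT, 284 in PIK3CA, 183 in HER2 and 117 CPM in the double mutants. Ctdsp2-ps is an annotated pseudogene of Ctdsp2, at 9.03, 11.6, 7.38 and 4.95 CPM in the same order. Reads of near-identical sequence could be split between it and Ctdsp2, so its likeness and a small part of the Ctdsp2 level are uncertain.

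Relatives of the 7 genes were looked at through lists of their families. Of 9 annexins tested, 0 passed in either direction in the double against PIK3CA mutants, and the median log2 difference was 0.02 (0.04 over all genes). The 22 other membrane skeleton genes tested, adducins and spectrins among them, had a median of -0.29 and 0 past the threshold. Add1 (alpha-adducin) had -0.47 (SE 0.132, edgeR adjusted p = 0.134). Of 7 tested genes of the polymerase tail phosphatase family, 0 passed, with a median of -0.17. Its member closest in function, Ctdsp1, had -0.55 (SE 0.145, edgeR adjusted p = 0.106). Pcmt1, the repair methyltransferase itself (-0.05, edgeR adjusted p = 0.902), and Pcmtd1 (0.01, edgeR adjusted p = 0.977) were near 0, and Zfp395 (-0.36, edgeR adjusted p = 0.546) and Fam234b (-0.40, edgeR adjusted p = 0.604) did not pass. None of these family lists had a gene past the threshold in the HER2 mutants against WT either.

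A list of 20 tested genes around FOXO, made up of 4 FOXO factors themselves and 16 genes linked to their activity, had 0 higher and 2 lower in the double against the PIK3CA mutants, with a median of -0.21. The lower ones were Erbb3 (-1.18, SE 0.12), given without a p because it is also one of the genes named above for likeness, and Insr, the insulin receptor (-0.46, SE 0.0963, edgeR adjusted p = 0.0449). Insr passed in 4 of 15 alternative settings. In the HER2 mutants against WT, the same list had 2 genes higher, Foxo3 (0.92, SE 0.149, edgeR adjusted p = 0.0338) and Ccng2 (0.72, SE 0.139, edgeR adjusted p = 0.0458). It also had 2 lower, the stress-response genes Sesn3 (-1.54, SE 0.248, edgeR adjusted p = 0.0338) and Gadd45a (-1.38, SE 0.214, edgeR adjusted p = 0.0321). Each of these 4 calls was lost when certain single samples were left out, passing in 3 of 7 such fits for Foxo3, Sesn3 and Gadd45a and in 1 of 7 for Ccng2. Of 12 proliferation genes, 0 passed in either comparison, with medians of 0.29 and 1.36.

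Some reads of 4 of the 7 genes could belong to overlapping genes. Anxa9 shares 71 exon bases with Mindy1, on the opposite strand, which was more highly counted than Anxa9 (79.2 CPM in WT, 79.1 in PIK3CA, 63.2 in HER2 and 61.1 in the double mutants) without the high PIK3CA value of Anxa9. Zfp704 shares 2525 exon bases with C030034L19Rik, also on the opposite strand, at 2.46 CPM or less in the group means. Mturn shares 190 with Gm28402, at 11 reads or fewer. Anxa9 also shares 94 exon bases with 6330562C20Rik, on the same strand, at group means of 0.528 to 1.10 CPM. Ctdsp2 hosts microRNA genes, among them that of miR-26a, whose mature form in RefSeq (chr10:126995543-126995564, plus strand) is shown with its seed, bases 2 to 8, in capitals because it is transcribed from within Ctdsp2.
mmu-miR-26a-5p: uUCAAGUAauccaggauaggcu
Small RNA was not measured in these libraries. Whether the counting used strand is not given in the sources used here, so reads of opposite-strand partners cannot be told apart. Strand would not separate 6330562C20Rik from Anxa9 in any case.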

How the data were processed

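A deposited table holds raw read counts per gene for 16 samples, and a separate deposited table holds normalized values (a signal). Per the submitters' processing notes, bcl2fastq 2.20, STAR 2.0.4b, Subread featureCounts 1.4.5, DESeq2 1.33.5 and the build mm10 were used, with no roles given. The authors' deposited normalized signal equals each count divided by a median-of-ratios size factor (largest relative difference 5.01e-11) and was used only for that check. Of 55774 rows, 287 identical repeats were dropped. Counts were scaled by TMM and tested with edgeR 4.0.16 (R 4.3.3): filterByExpr, quasi-likelihood test, Benjamini-Hochberg adjustment over all genes, threshold 0.05, prior count 2 for log2 CPM. Intervals are 95% without adjustment for the number of genes. HER2 against WT used the 7 samples of these groups, the double against the PIK3CA mutants all 16, and the Erbb2 slope the 9 samples with a HER2 mutation. Alternatives were DESeq2 1.42.0, limma 3.58.1, other scalings and filters, a replicate block and leaving out each sample. The tests were tried on simulated data, where they missed many of the changes put in, so a gene that did not pass may still differ. Named genes are the 7 members, Erbb2, Pik3ca, for each member the most similar gene and for their mean z-score the 5 most similar by Pearson r of log2 CPM, and genes of the family, pathway and marker lists. The members and lists were chosen with earlier results of these data known. No promoter window was matched for Pcmtd2 and Zfp704.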

Additional observations from a re-analysis of the deposited data

Results flagged for a closer look

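Ctdsp2 in replicate 1 of the HER2 mutants was the lowest of its group at 141.9 CPM, with its distance to the next sample taking 0.844 of the group's range. The other 3 samples were at 203 to 214 CPM. Among 27 gene and group combinations of 4 or 5 samples looked at in this way, it was the 1 that stood out, and chance gives about 1 in 20. Without that sample, Ctdsp2 in the HER2 mutants against WT had a log2 difference of -0.58 (edgeR adjusted p = 0.0502).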

How the results depend on the processing

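For HER2 mutants against WT, 541 genes passed in the fit as reported, against 882 with no filter on low counts, 1 with a replicate block, 2876 with DESeq2, 2518 with all 16 samples in the fit and 5 to 755 when 1 sample was left out. For double against PIK3CA mutants, 163 became 19 with the replicate block (4 higher and 15 lower), 666 with DESeq2, 364 with only the 9 samples of these groups and 17 to 143 when 1 sample was left out. For the Erbb2 slope, 0 became 488 with DESeq2, an alternative chosen after seeing the data, and 0 to 1476 when 1 sample was left out. The Add3 slope (-0.06) reversed to 0.056 with upper-quartile scaling, 0.21 without HER2-mutant replicate 2 and 0.04 without double-mutant replicate 1, and ranged from -0.19 to 0.21 when 1 sample was left out. For the 7 genes, 88 of 105 values of HER2 mutants against WT stayed on the same side of the threshold, 11 lost the call and 6 gained it, and 0 changed direction. Zfp704 ranged from -0.91 to -0.81 (edgeR, DESeq2 or limma adjusted p 1.02e-07 to 0.159) and Fam234a from -0.89 to -0.73 (adjusted p 0.000179 to 0.178). With the replicate block their edgeR adjusted p was 0.14 and 0.143. All 105 values of double against PIK3CA mutants kept their direction. This contrast chose the genes, which favours that outcome, so nothing is read from it. Deviations of same-numbered samples from their group means correlated at r -0.163 to 0.0109 between HER2 mutants and WT (3 pairs), -0.139 to 0.149 between double and PIK3CA mutants (4 pairs) and 0.0711 to 0.273 between double and HER2 mutants (4 pairs, 3 of them over 0.1). In no case was every pair over 0.1, and the labels tie the numbers to nothing shared, so the block was not used as reported fit. With the replicate block the Erbb2 slopes were 0.44 for Anxa9, -0.60 for Mturn, 0.28 for Pcmtd2, -0.39 for Add3, -0.20 for Zfp704, -0.35 for Ctdsp2 and -0.35 for Fam234a, with edgeR adjusted p of 0.893 to 0.947. The groups held 3 to 5 samples, and the lowest Mturn sample had 165 reads.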
